A study of Mus musculus with 24 samples.

Results

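The genes described are those of phosphofructokinase (Pfkl, Pfkm and Pfkp) and of the bifunctional enzymes that set its activator (Pfkfb1, Pfkfb2, Pfkfb3 and Pfkfb4). Their probe sets were found by symbol, as those annotated to exactly 1 of these 7 symbols. Of the 28856 probe sets on the array, 6 met the rule, 1 for each of Pfkl, Pfkm, Pfkp, Pfkfb2, Pfkfb3 and Pfkfb4. Pfkfb1 had no probe set under its symbol and is not analysed here.

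RNA came from primary neural stem cell cultures of C57Bl/6 mouse cortex or midbrain (mesencephalon), taken at embryonic day 14 and kept in expansion medium, each array from a well of a culture plate. All 8 groups, of 3 arrays each, share strain, stage and medium. They are midbrain at 48 h, midbrain at 13 d, cortex labelled 48 h and cortex labelled 13 d, each at 3% O2 (in nitrogen with carbon dioxide) and at 21% O2. The cultures were mixtures of cells: at 21% O2 a list of 16 neuron genes averaged 11.67 ± 0.038 (SD, n = 3, log2 level) in midbrain 48 h, with 11.09 ± 0.029 for cortex labelled 13 d. Cortex labelled 48 h averaged 9.13 ± 0.17 and midbrain 13 d 8.27 ± 0.063. The first pair is therefore called neuron-rich and the second neuron-poor, and cortex times are given as labelled, since this order runs opposite to time in the 2 regions. The stem cell genes Nes (nestin) and Sox2 read 10.01 and 10.57 in midbrain 48 h, against 11.85 and 12.25 for cortex labelled 48 h, also at 21% O2.

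Values are log2, spanned 4.65 to 14.49 over the table, and had array medians of 7.35 to 7.42. Arrays within a group correlated at 0.986 to 0.999, lowest in cortex labelled 48 h at 21% O2, where replicate 1 stood apart. Nothing in the labels states that replicate arrays represent separate cultures or animals, and the p-values therefore reflect the spread among these arrays alone, which may be technical. The number of arrays limits the precision. By the numbering in the labels, the 6 arrays of midbrain 13 d made up array run 1 and the remaining 18 run 2. Oxygen was compared within a run, whereas levels of midbrain 13 d against any other culture cannot be told apart from the run and are given without a test. A gene is said to rise or fall where limma's adjusted p was under 0.05 over the 23410 probe sets with a gene symbol.

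Phosphofructokinase adds the second phosphate to fructose phosphate and so commits the sugar to glycolysis. It works as a tetramer built from liver (Pfkl), muscle (Pfkm) and platelet (Pfkp) type subunits, all of which occur in brain, and the mix sets how the enzyme responds to its allosteric effectors. The PFKFB enzymes make and remove a fructose bisphosphate that is a strong activator of phosphofructokinase. Pfkfb3 encodes the form with the highest kinase over phosphatase activity, is a textbook target of the hypoxia-inducible factor (HIF), and its protein is kept low in neurons by the anaphase-promoting complex. Pfkfb2 is the form known from heart and Pfkfb4 the one known from testis and from hypoxic tumours.

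The RefSeq promoter table (GRCm38.p6) held all 7 genes, with 16 start windows of 250 bases before a gene start. Each was searched on both strands for ACGTG or GCGTG, the core letters of the HIF binding motif, with overlapping matches counted once. Such letters were found in 12 of the 16 windows, against 38.6% of all 32851 windows, but the windows are not all separate. Those of Pfkm at chr15:98108221-98108470 and chr15:98108306-98108555 overlap and share 1 match. Those of Pfkfb2 at chr1:130715822-130716071 and chr1:130716049-130716298 also overlap, without a shared match. Of all windows, 13.5% held 2 or more. Both motifs contain CG, and the number of CG in the member windows ran from 0 to 24. The background windows were not matched for it, and whether the member share differs from theirs was not tested. Matches also lay before Pfkm and Pfkfb4, which did not pass for oxygen in any culture. The windows shown are those of the 3 genes whose level moved most with oxygen, and of Pfkfb2 as one that did not pass the test in any culture. Each is written 5′ to 3′ on the gene's strand, with the matches in capitals. Pfkp, at chr13:6648772-6649021 on the minus strand, held 3 matches, 136, 68 and 23 bases before the start. Pfkl, at chr10:78009808-78010057 on the minus strand, held 1 match at 99 bases. Pfkfb3 had 2 start windows on the minus strand, chr2:11553930-11554179 with 1 match at 60 bases and chr2:11502091-11502340 with 2, at 122 and 53 bases. Pfkfb2 had 3 start windows on the minus strand, with 3, 1 and 1 matches. The one printed, chr1:130715822-130716071, is that with the most, at 72, 44 and 22 bases.
Pfkp: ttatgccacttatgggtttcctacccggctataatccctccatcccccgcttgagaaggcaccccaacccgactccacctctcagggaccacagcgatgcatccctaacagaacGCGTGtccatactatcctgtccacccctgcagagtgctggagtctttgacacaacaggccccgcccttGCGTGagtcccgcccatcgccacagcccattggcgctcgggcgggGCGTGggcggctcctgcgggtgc
Pfkl: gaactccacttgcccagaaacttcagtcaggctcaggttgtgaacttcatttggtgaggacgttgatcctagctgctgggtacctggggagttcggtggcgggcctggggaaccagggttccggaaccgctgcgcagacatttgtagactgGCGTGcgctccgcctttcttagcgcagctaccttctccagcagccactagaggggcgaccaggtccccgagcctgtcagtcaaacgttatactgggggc
Pfkfb3, first window: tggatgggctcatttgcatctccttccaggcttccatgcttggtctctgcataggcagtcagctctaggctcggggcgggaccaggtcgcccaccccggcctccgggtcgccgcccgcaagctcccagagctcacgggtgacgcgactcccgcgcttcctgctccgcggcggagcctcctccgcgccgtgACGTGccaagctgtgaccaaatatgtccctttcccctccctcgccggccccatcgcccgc
Pfkfb3, second window: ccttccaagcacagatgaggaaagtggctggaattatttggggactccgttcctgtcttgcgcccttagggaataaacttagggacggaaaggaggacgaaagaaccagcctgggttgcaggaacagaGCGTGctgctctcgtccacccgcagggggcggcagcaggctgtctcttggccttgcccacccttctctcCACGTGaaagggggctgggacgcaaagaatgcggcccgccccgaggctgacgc
Pfkfb2: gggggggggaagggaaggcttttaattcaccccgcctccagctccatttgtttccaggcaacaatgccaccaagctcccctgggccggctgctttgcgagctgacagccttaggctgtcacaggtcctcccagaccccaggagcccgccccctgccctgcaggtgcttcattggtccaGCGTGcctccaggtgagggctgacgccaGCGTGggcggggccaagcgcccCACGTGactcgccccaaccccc

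The levels of the 6 genes differed in how far they moved over the 8 groups. Group means of Pfkp spanned 3.69 on the log2 scale and those of Pfkl 3.07, against 1.58 for Pfkfb3, 1.10 for Pfkm, 0.99 for Pfkfb2 and 0.47 for Pfkfb4. The median SD within a group was 0.26 for Pfkp, 0.13 for Pfkl and 0.12 for Pfkfb3, and between 0.067 and 0.096 for the others. Levels are not compared between genes, because probe sets are not calibrated to each other. The mean of Pfkfb4 lay below the median of the tested probe sets and those of the other 5 above it. In midbrain 13 d at 21% O2, however, the Pfkp arrays (6.98 to 7.17) lay below every array median (7.35 to 7.42). That group enters each Pfkp difference given for midbrain 13 d.

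**Figure D1:**
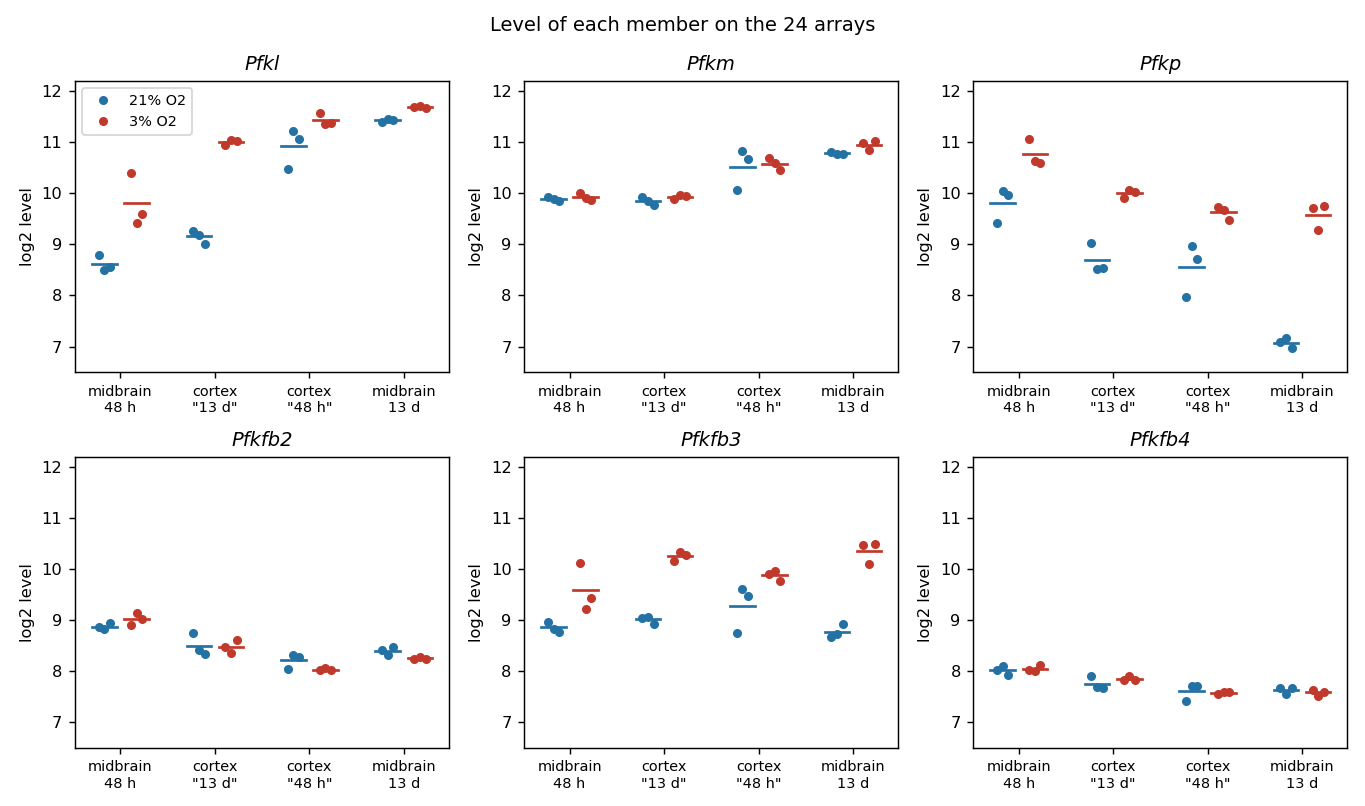
Log2 level of each gene (y axis) on the 24 arrays, by culture (x axis, neuron-rich on the left) and oxygen (blue 21%, red 3%), with a point per array and a line at the mean of 3. Pfkl climbs from left to right and Pfkp falls at 21% O2, while the red points of Pfkl, Pfkp and Pfkfb3 sit above the blue ones in each culture.

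Pfkp, the platelet type subunit, was higher at 3% O2 in all 4 cultures. In midbrain 13 d its 3 arrays read 9.71, 9.28 and 9.75 at 3% O2 and 7.09, 7.17 and 6.98 at 21% O2. The groups lay more than 2 log2 units apart, a rise of 2.50 ± 0.21 (SE, 5.66-fold, adjusted p = 6.33e-08, limma), and Pfkp ranked 5 from the top of all tested probe sets. In cortex labelled 13 d the arrays read 9.92, 10.06 and 10.02 against 9.02, 8.52 and 8.53, a rise of 1.31 ± 0.21 (2.48-fold, adjusted p = 0.00242). In cortex labelled 48 h they read 9.73, 9.68 and 9.48 against 7.97, 8.97 and 8.71, a rise of 1.08 ± 0.21 (2.11-fold, adjusted p = 0.00188). Replicate 1 at 21% O2 was the lowest of that group, and without it the rise was 0.79 (still called). A fit of those 6 cortex arrays alone did not call it (adjusted p = 0.108). Midbrain 48 h read 11.06, 10.64 and 10.60 against 9.42, 10.05 and 9.98, a rise of 0.95 ± 0.21 (1.93-fold, adjusted p = 0.0326). The midbrain 48 h call was lost (adjusted p = 0.0786) with the replicate number as a block, and also without replicate 1 (0.80) or replicate 2 (1.01) at 3% O2, or without replicate 1 (0.75) or replicate 3 (1.03) at 21% O2. In each of the 4 cultures the lowest 3% O2 array lay above the highest 21% O2 array. Pfkp was the only one of the 6 genes to pass in all 4 comparisons, which 14 of the 23410 probe sets did.

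Pfkl, the liver type subunit, rose at 3% O2 in the neuron-rich cultures. In cortex labelled 13 d it read 10.94, 11.04 and 11.02 at 3% O2 and 9.27, 9.18 and 9.02 at 21% O2, a rise of 1.84 ± 0.19 (3.59-fold, adjusted p = 9.8e-06) that ranked 10 from the top. Midbrain 48 h arrays read 10.39, 9.42 and 9.60 against 8.80, 8.50 and 8.57, a rise of 1.18 ± 0.19 (2.27-fold, adjusted p = 0.00271, rank 8). Replicate 1 at 3% O2 was the highest array, as it was for Pfkp and Pfkfb3, and without it the rise was 0.89 (adjusted p = 0.00797). A fit of the 6 midbrain 48 h arrays alone called neither Pfkl nor Pfkp (adjusted p = 0.183 for each). The SD of Pfkl there was 0.52 at 3% O2 and 0.16 at 21% O2, against 0.014 and 0.024 in midbrain 13 d. An error shared by all 24 arrays does not follow such differences in spread. The neuron-poor cultures had high levels at both oxygen levels. Midbrain 13 d read 11.69, 11.71 and 11.68 at 3% O2 and 11.40, 11.45 and 11.43 at 21% O2, close and without overlap. That difference of 0.26 ± 0.19 did not pass with the error shared by all 24 arrays (adjusted p = 0.393), and it did pass in a fit of those 6 arrays alone (adjusted p = 0.00244). In cortex labelled 48 h the values were 11.58, 11.35 and 11.37 against 10.47, 11.23 and 11.06, again without overlap. The difference of 0.52 ± 0.19 had an adjusted p of 0.0798, and without replicate 1 at 21% O2 it was 0.29 (adjusted p = 0.317).

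Pfkm, the muscle type subunit, did not pass the test for oxygen in any culture. Its differences were 0.044, 0.17, 0.058 and 0.075 in midbrain 48 h, midbrain 13 d, cortex labelled 48 h and cortex labelled 13 d, each ± 0.12. The 95% intervals reached from -0.21 at the lowest to 0.42 at the highest, so a rise of the size seen for Pfkp lay outside all 4. In midbrain 13 d the arrays read 10.98, 10.84 and 11.03 at 3% O2 and 10.80, 10.77 and 10.77 at 21% O2, without overlap. In the other 3 cultures the oxygen groups overlapped, and in cortex labelled 48 h the sign rested on 1 array: without replicate 1 at 21% O2 (10.06, against 10.83 and 10.68) the difference was -0.17.

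Pfkfb3, the inducible activator enzyme, was higher at 3% O2 in every culture and passed in 3 of 4. Midbrain 13 d read 10.48, 10.11 and 10.48 at 3% O2 and 8.67, 8.73 and 8.93 at 21% O2, a rise of 1.58 ± 0.19 (2.99-fold, adjusted p = 5e-06). Cortex labelled 13 d read 10.16, 10.34 and 10.28 against 9.05, 9.06 and 8.93, a rise of 1.25 ± 0.19 (2.37-fold, adjusted p = 0.00146). These groups stood more than 1 log2 unit apart. In cortex labelled 48 h the values were 9.91, 9.97 and 9.77 against 8.75, 9.62 and 9.46, a rise of 0.60 ± 0.19 (1.52-fold, adjusted p = 0.0468). That call rested on few arrays: without replicate 1 at 21% O2 the difference was 0.34 (adjusted p = 0.212), and it also missed the threshold without replicate 1 (0.59), 2 (0.56) or 3 (0.66) at 3% O2, or without replicate 3 at 21% O2 (0.70). The arrays of midbrain 48 h read 10.12, 9.22 and 9.43 against 8.97, 8.83 and 8.78. The groups did not overlap, but the difference of 0.73 ± 0.19 (1.66-fold) missed the threshold (adjusted p = 0.0752), and passed it with the replicate block (adjusted p = 0.0495). Without replicate 1 at 3% O2 it was 0.47 (adjusted p = 0.285), and without replicate 2 at 3% O2 it was 0.92 (adjusted p = 0.0441).

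Pfkfb2 and Pfkfb4 did not pass for oxygen in any culture. The differences of Pfkfb2 were 0.15, -0.15, -0.18 and -0.014 (each ± 0.091) in midbrain 48 h, midbrain 13 d, cortex labelled 48 h and cortex labelled 13 d. Those of Pfkfb4 were 0.030, -0.048, -0.030 and 0.10 (each ± 0.073). The 95% intervals of Pfkfb4 lay between -0.20 and 0.26, and those of Pfkfb2 between -0.37 and 0.34. Pfkfb2 read 8.24, 8.28 and 8.24 at 3% O2 and 8.42, 8.32 and 8.47 at 21% O2 in midbrain 13 d, so that its 3% O2 arrays were all the lower ones there.

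Counted together, 2 of the 6 genes rose in midbrain 48 h, where 0.701% of all tested probe sets did, and 3 of 6 in cortex labelled 13 d, where 0.543% did. In cortex labelled 48 h 2 rose against 6.25% of all, and in midbrain 13 d 2 rose against 11.2% of all. None fell. These genes were picked with earlier results of the same data known, so the shares describe them and are no test. The median difference of the 6 was 0.44, 0.68, 0.29 and 0.22 in that order of cultures, and that of all tested probe sets lay between -0.022 and 0.0021. Groups did not overlap, with 3% O2 higher, for 3 genes in midbrain 48 h (7.84% of all), 4 in midbrain 13 d (18.5%), 3 in cortex labelled 48 h (11.4%) and 3 in cortex labelled 13 d (6.94%). Some cell type markers also moved with oxygen in the neuron-poor cultures. Calls in either direction numbered 2886 of the 23410 probe sets for cortex labelled 48 h, against 5584 for midbrain 13 d. Whether the marker lists held more calls than these totals was not tested. Of the 16 neuron genes, 7 fell and 1 rose at 3% O2 in cortex labelled 48 h. Array means of the list ran there from 8.60 to 8.95 at 3% O2 and from 8.94 to 9.25 at 21% O2. Replicate 1 of this culture at 21% O2 had an astrocyte list mean of 7.34, against 8.94 and 8.70 for replicates 2 and 3. Its oligodendrocyte lineage mean was 10.06, against 11.14 and 11.04. Replicate 1 at 3% O2 also had a lower oligodendrocyte lineage mean, 10.22 against 10.79 for replicates 2 and 3. Its neuron list mean was 8.60, against 8.95 and 8.91. Its astrocyte mean of 7.87 lay between their 7.93 and 7.79. In midbrain 13 d, 3 of the neuron genes rose and 3 fell. There 2 of the 6 pericyte, fibroblast and meninges genes rose, with array means of 7.53 to 7.82 against 7.03 to 7.12. Of the 5 cycling cell genes there, 2 rose, with array means of 11.35 to 11.51 against 11.10 to 11.20. The oligodendrocyte lineage list (7 genes measured) had 1 higher and 1 lower in that culture, with array means of 9.88 to 10.27 against 10.53 to 10.60, and the neural stem and radial glia list (10 genes) had 2 higher and 2 lower. In midbrain 48 h and cortex labelled 13 d 0 of the 16 neuron genes passed, by limma's adjusted p. Only 279 and 142 of the 23410 probe sets were called there in either direction, so a count of 0 says little about these genes. The part of cell makeup in the differences of Pfkp and Pfkfb3 was not tested. In such bulk RNA, fewer cells of a type and less RNA per cell cannot be told apart.

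**Figure D2:**
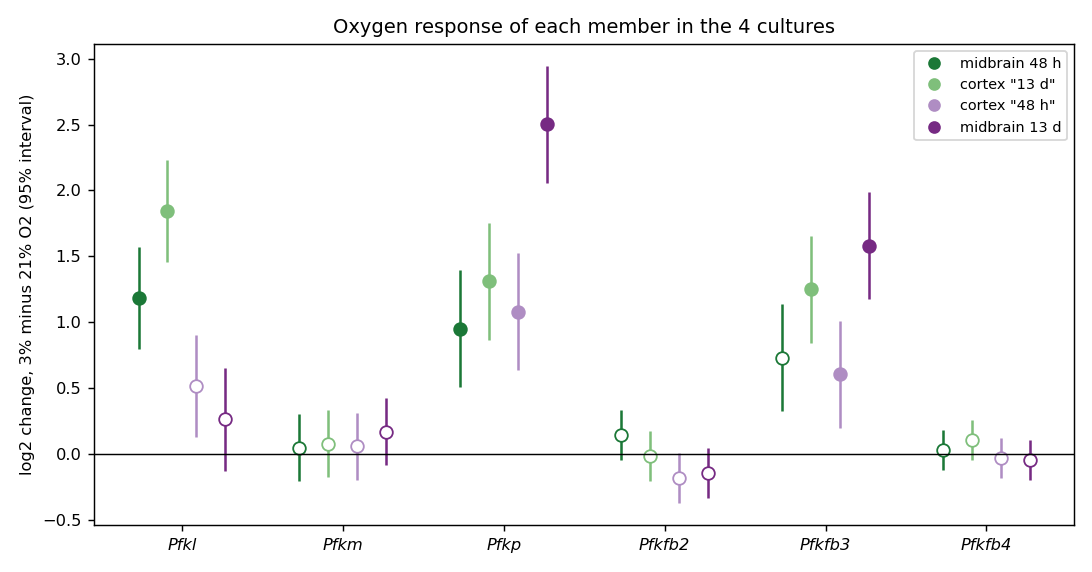
Log2 change at 3% against 21% O2 (y axis) of each gene (x axis) in the 4 cultures (colours), with 95% intervals from limma, n = 3 arrays per group. Filled points passed an adjusted p of 0.05 and open points did not. Pfkp is filled in all 4 cultures, Pfkl in the neuron-rich pair only, and Pfkm, Pfkfb2 and Pfkfb4 stay near 0.

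Against midbrain 48 h and against cortex labelled 13 d, midbrain 13 d had a smaller oxygen response of Pfkl and a larger one of Pfkp, by a test of the difference itself. The 2 midbrain responses differed by -0.92 ± 0.26 for Pfkl (13 d minus 48 h, adjusted p = 0.0216) and by 1.55 ± 0.30 for Pfkp (adjusted p = 0.00142). Pfkfb3 followed Pfkp, with 0.85 ± 0.27 (adjusted p = 0.0415), a call that 9 of the 12 fits leaving out 1 array did not keep, with differences of 0.67 to 1.11 over the 12. Pfkl lost the call without replicate 2 of midbrain 48 h at 21% O2 (-0.86, adjusted p = 0.0502). Without replicate 1 of midbrain 48 h at 3% O2 the differences were -0.63 for Pfkl, 1.70 for Pfkp and 1.11 for Pfkfb3, all 3 called. Each response lies within 1 array run, although the pair of cultures spans both. In this comparison 15.1% of all probe sets were called in either direction.

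At labelled 13 d the response of Pfkl was smaller in midbrain than in cortex by 1.58 on the log2 scale (difference -1.58 ± 0.26, adjusted p = 0.000403), and that of Pfkp was larger by 1.19 ± 0.30 (adjusted p = 0.0108), where 13.5% of all probe sets differed. These differences use the same midbrain 13 d arrays as those above. Between the 2 cortex cultures the response of Pfkl was larger at labelled 13 d by 1.33 ± 0.26 (adjusted p = 0.00748), against 4.13% of all probe sets called. Those of Pfkp (0.23 ± 0.30) and Pfkfb3 (0.64 ± 0.27, adjusted p = 0.231) did not differ past the threshold. Without replicate 1 of cortex labelled 48 h at 21% O2 the Pfkfb3 difference was 0.90 (adjusted p = 0.0137). At labelled 48 h, 0 of the 6 genes differed between midbrain and cortex, with 0.67 ± 0.26 for Pfkl (adjusted p = 0.143), where 5.88% of all probe sets did. Without that same cortex array, Pfkl (0.89, adjusted p = 0.0174) and Pfkfb2 (0.41, adjusted p = 0.0344) passed.

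Levels of the isoforms were then compared between neuron-rich and neuron-poor cultures of array run 2, at each oxygen level. Both comparisons used the arrays of cortex labelled 48 h as the neuron-poor side, so they are not independent of each other. In each, neuron content cannot be told apart from the region or the labelled time.

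In midbrain 48 h, Pfkl was 4.92-fold lower than in cortex labelled 48 h at 21% O2 (-2.30 ± 0.19, adjusted p = 1.48e-09) and 3.10-fold lower at 3% O2 (-1.63 ± 0.19, adjusted p = 1.79e-07). Pfkp ran the other way and was 2.40-fold higher at 21% O2 (1.26 ± 0.21, adjusted p = 3.28e-05) and 2.20-fold higher at 3% O2 (1.14 ± 0.21, adjusted p = 9.93e-05). Pfkm was 1.55-fold lower at 21% O2 (-0.64 ± 0.12, adjusted p = 0.000139) and 1.57-fold lower at 3% O2 (-0.65 ± 0.12, adjusted p = 9.9e-05). Pfkfb2 was higher by 0.66 ± 0.091 at 21% O2 and by 0.99 ± 0.091 at 3% O2, reading 8.90, 9.14 and 9.02 in midbrain 48 h at 3% O2 and 8.02, 8.05 and 8.01 in cortex labelled 48 h. Pfkfb4 was higher by 0.41 ± 0.073 and 0.47 ± 0.073, reading 8.02, 8.00 and 8.13 against 7.56, 7.59 and 7.59 at 3% O2. Pfkfb3 did not pass at either oxygen level (-0.42 ± 0.19, adjusted p = 0.0757, and -0.29 ± 0.19, adjusted p = 0.203). It did at 21% O2 without replicate 1 of cortex labelled 48 h at 21% O2 (-0.68, adjusted p = 0.00237), and at 3% O2 without replicate 1 of midbrain 48 h at 3% O2 (-0.56, adjusted p = 0.0104). So 5 of the 6 genes were called at each oxygen level, where 54.8% of all tested probe sets were at 21% O2 and 61.2% at 3% O2. The direction and size of the differences, rather than the number called, describe the members here.

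In cortex labelled 13 d against labelled 48 h, Pfkl was 3.39-fold lower at 21% O2 (-1.76 ± 0.19, adjusted p = 1.95e-07), but at 3% O2 the difference of -0.43 ± 0.19 missed the threshold (adjusted p = 0.0684). Pfkm was lower by 0.67 at 21% O2 (-0.67 ± 0.12, adjusted p = 0.000161) and by 0.65 at 3% O2 (-0.65 ± 0.12, adjusted p = 0.000173). Pfkp did not pass at either oxygen level, with 0.14 ± 0.21 at 21% O2 (adjusted p = 0.671) and 0.37 ± 0.21 at 3% O2 (adjusted p = 0.181). Without replicate 1 of cortex labelled 48 h at 21% O2 its sign at 21% O2 turned (-0.15), and it also did without replicate 1 of cortex labelled 13 d at 21% O2 (-0.028). Pfkfb2 was higher by 0.28 ± 0.091 at 21% O2 (adjusted p = 0.0192), a call lost without replicate 1 of cortex labelled 48 h (0.20) or of cortex labelled 13 d (0.16), and by 0.45 ± 0.091 at 3% O2 (adjusted p = 0.000382). Pfkfb4 was higher by 0.27 ± 0.073 at 3% O2 (adjusted p = 0.00469) and did not pass at 21% O2 (0.14 ± 0.073, adjusted p = 0.156). Pfkfb3 did not pass at 21% O2 (-0.27 ± 0.19, adjusted p = 0.324) or at 3% O2 (0.38 ± 0.19, adjusted p = 0.131). Without replicate 1 of cortex labelled 48 h at 21% O2 it was lower by 0.53 at 21% O2 (-0.53, adjusted p = 0.021). In all, 3 of 6 genes were called at each oxygen level, against 37.2% of all tested probe sets at 21% O2 and 42.2% at 3% O2.

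The cell type lists moved with these level differences, and their part in them was not tested. Of the 16 neuron genes, 15 were higher in cortex labelled 13 d than in labelled 48 h at each oxygen level, and in midbrain 48 h 16 were higher at 21% O2 and 15 at 3% O2. The oligodendrocyte lineage list went the other way, with 7 lower and 6 lower in cortex labelled 13 d at 21% and 3% O2, and 6 lower in midbrain 48 h at each. Of the 10 neural stem and radial glia genes, 9 were lower in midbrain 48 h at each oxygen level (medians -1.71 and -1.37). In cortex labelled 13 d, 6 at 21% O2 and 7 at 3% O2 were lower (medians -0.55 and -0.53) and 1 was higher at each. Of the 6 astrocyte genes, 5 were lower at 21% O2 in each comparison. At 3% O2, 2 were lower in cortex labelled 13 d, and 3 were lower and 1 higher in midbrain 48 h. All 8 microglia and macrophage genes were higher in midbrain 48 h, where array means of the list ran from 7.43 to 7.96, against 6.39 to 6.81 in all other cultures. Of the 6 pericyte, fibroblast and meninges genes, 3 at 21% O2 and 2 at 3% O2 were higher in midbrain 48 h. There replicate 3 stood apart at both oxygen levels, with array means of 8.66 at 21% O2 and 8.57 at 3% O2, while replicates 1 and 2 lay between 6.99 and 7.16, against 6.59 to 7.20 in cortex labelled 48 h. The cycling cell list (5 genes measured) had 5 lower at 21% O2 and 4 at 3% O2 in midbrain 48 h, but 1 lower in cortex labelled 13 d at each.

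Because shares of summed signal would need calibrated probe sets, the balance of isoforms was measured as the log2 ratio of 2 isoforms on the same array. The ratio has no meaningful zero, and its shift between groups is the quantity tested. The Pfkp over Pfkl ratio ordered the cultures as the neuron list did at 21% O2. It was 1.19 ± 0.50 (SD, n = 3) in midbrain 48 h, -0.47 ± 0.21 in cortex labelled 13 d, -2.37 ± 0.13 in cortex labelled 48 h and -4.35 ± 0.090 in midbrain 13 d. At 3% O2 the order was the same, at 0.96 ± 0.28, -1.002 ± 0.024, -1.81 ± 0.11 and -2.11 ± 0.27. The last 2 groups then lay edge to edge, with arrays from -1.89 to -1.68 and from -2.43 to -1.93, and the spread over cultures was narrower than at 21% O2. The place of midbrain 13 d in this order crosses the array runs and has no test.

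The ratio tests were exact, two-sided and permuted arrays within an oxygen level (400 arrangements, smallest possible p = 0.005), or within a culture for oxygen (160000 arrangements), and 9 were run and adjusted together. Pfkp over Pfkl was 2.55-fold higher in cortex labelled 13 d than in labelled 48 h (shift 1.35, exact permutation p = 0.005, adjusted p = 0.00643) and 8.97-fold higher in midbrain 48 h than in cortex labelled 48 h (shift 3.17, same p-values). In both, all 3 arrays of the neuron-rich culture lay above all 3 of the neuron-poor culture at each oxygen level. Pfkp over Pfkm was 1.89-fold higher in cortex labelled 13 d (shift 0.92) and 3.59-fold higher in midbrain 48 h (shift 1.84), also at the smallest possible p. The cortex shift of 1.35 averages unlike values, -0.47 against -2.37 at 21% O2 and -1.002 against -1.81 at 3% O2. Pfkp itself did not pass between the cortex cultures (0.14 and 0.37), whereas Pfkm was lower at both oxygen levels and Pfkl at 21% O2. Pfkl over Pfkm was 2.50-fold lower in midbrain 48 h (shift -1.32, exact permutation p = 0.005, adjusted p = 0.00643). In cortex labelled 13 d its shift of -0.44 did not pass (exact permutation p = 0.1), being -0.70 ± 0.046 against 0.40 ± 0.015 at 21% O2 but 1.07 ± 0.012 against 0.85 ± 0.088 at 3% O2. All 9 results kept their side of the threshold with 1 array left out, the one that stood apart included.

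**Figure D3:**
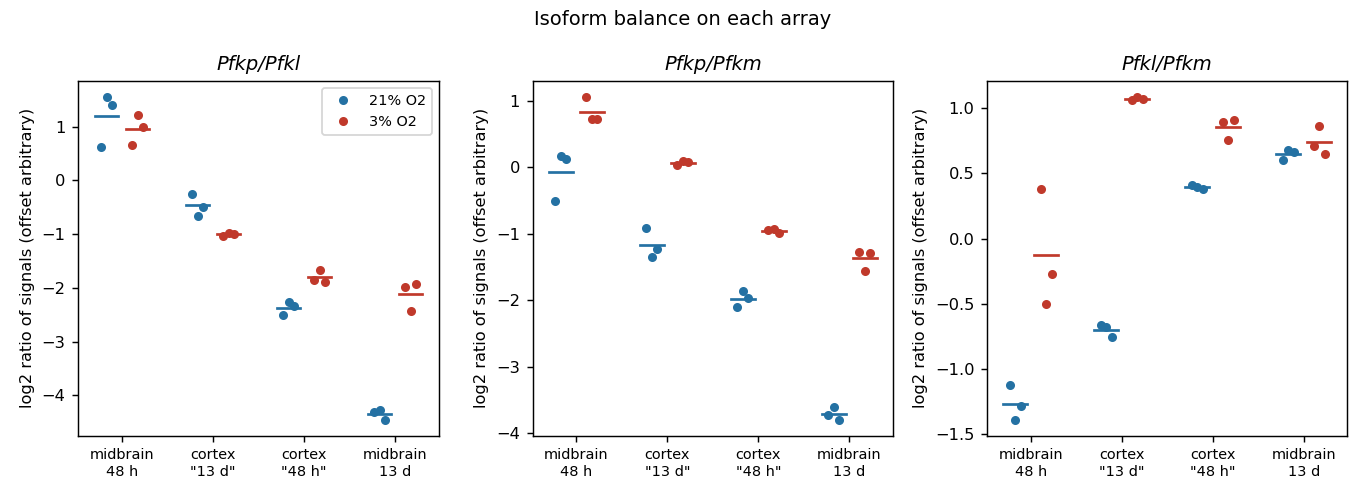
Log2 ratio of 2 isoforms on each of the 24 arrays (y axis, 1 panel per pair), by culture (x axis) and oxygen (blue 21%, red 3%), with lines at the means of 3 arrays. Pfkp/Pfkl and Pfkp/Pfkm step down from the neuron-rich to the neuron-poor cultures, and Pfkp/Pfkl is higher at 3% O2 in the neuron-poor pair but lower in cortex labelled 13 d.

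Over the 4 cultures, both Pfkp and Pfkl were higher relative to Pfkm at 3% O2. The Pfkp over Pfkm ratio was 2.59-fold higher at 3% O2 (shift 1.37, exact permutation p = 1.25e-05, the smallest possible, adjusted p = 0.000113), with no overlap in any culture and shifts of 0.91, 2.33, 1.02 and 1.23 in midbrain 48 h, midbrain 13 d, cortex labelled 48 h and cortex labelled 13 d. The Pfkl over Pfkm ratio was 1.82-fold higher (shift 0.86, exact permutation p = 3.75e-05, adjusted p = 0.000169). Its shifts were 1.14, 0.46 and 1.77 in midbrain 48 h, cortex labelled 48 h and cortex labelled 13 d, and 0.094 in midbrain 13 d, where the arrays overlapped. The Pfkp over Pfkl ratio had no common direction (shift 0.51, exact permutation p = 0.0707, adjusted p = 0.0796). It was higher at 3% O2 by 2.24 in midbrain 13 d and by 0.56 in cortex labelled 48 h, and lower by 0.54 in cortex labelled 13 d (shift -0.54), without overlap in these 3. Each of the 3 had an exact permutation p of 0.1, which is the smallest that 3 arrays against 3 allow, so a single culture cannot pass. In midbrain 48 h the groups overlapped (shift -0.23, exact permutation p = 0.6).

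Of the 14 listed genes from hexokinase to lactate dehydrogenase, 11 had a probe set of their own. At 3% O2, 6 rose in midbrain 48 h, 7 in cortex labelled 13 d and 6 in midbrain 13 d, but 1 in cortex labelled 48 h, with 1 lower in each neuron-poor culture. The list medians were 0.50, 0.72, 0.34 and 0.23 in that order. Tpi1 (triose phosphate isomerase) rose by 1.10 ± 0.17 in midbrain 48 h and by 1.48 ± 0.17 for cortex labelled 13 d, and was at 0.44 and 0.47 without a call in midbrain 13 d and cortex labelled 48 h, a pattern near that of Pfkl. Pgk1 (phosphoglycerate kinase) rose by 0.85 ± 0.14 and 1.00 ± 0.14 in the same 2 cultures and was at 0.33 and 0.36, not called, in the others. Aldoa, the aldolase that splits the product of phosphofructokinase, rose by 0.67 in midbrain 48 h, 0.79 in cortex labelled 13 d and 0.28 in midbrain 13 d (each ± 0.085). Pkm (pyruvate kinase) was the only one of the 11 to rise in all 4, by 0.30 to 0.62. Ldhb, the lactate dehydrogenase subunit of oxidative tissues, was the gene that fell, by 0.88 in midbrain 13 d and by 0.36 for cortex labelled 48 h.

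Upstream of the reaction, the glucose transporter gene Slc2a1 rose by 1.18 ± 0.20 in midbrain 48 h, 1.95 ± 0.20 in cortex labelled 13 d and 1.02 ± 0.20 in midbrain 13 d, and was at 0.55 without a call in cortex labelled 48 h. Slc2a3, the transporter typical of neurons, rose by 1.72 ± 0.23 in cortex labelled 13 d, 1.96 ± 0.23 in midbrain 13 d and 1.14 ± 0.23 for cortex labelled 48 h. Hk2, the inducible hexokinase, rose in cortex labelled 13 d (0.91 ± 0.20) and midbrain 13 d (1.07 ± 0.20), while Hk1 did not pass in any culture (-0.049 to 0.16). Among the 3 genes that oppose the step, Fbp1 (fructose bisphosphatase) fell by 1.26 in midbrain 13 d (-1.26 ± 0.094, adjusted p = 1.49e-08), the culture with the largest rise of Pfkp. Fbp1 elsewhere, and Fbp2 and Tigar in all 4 cultures, did not pass.

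**Figure D4:**
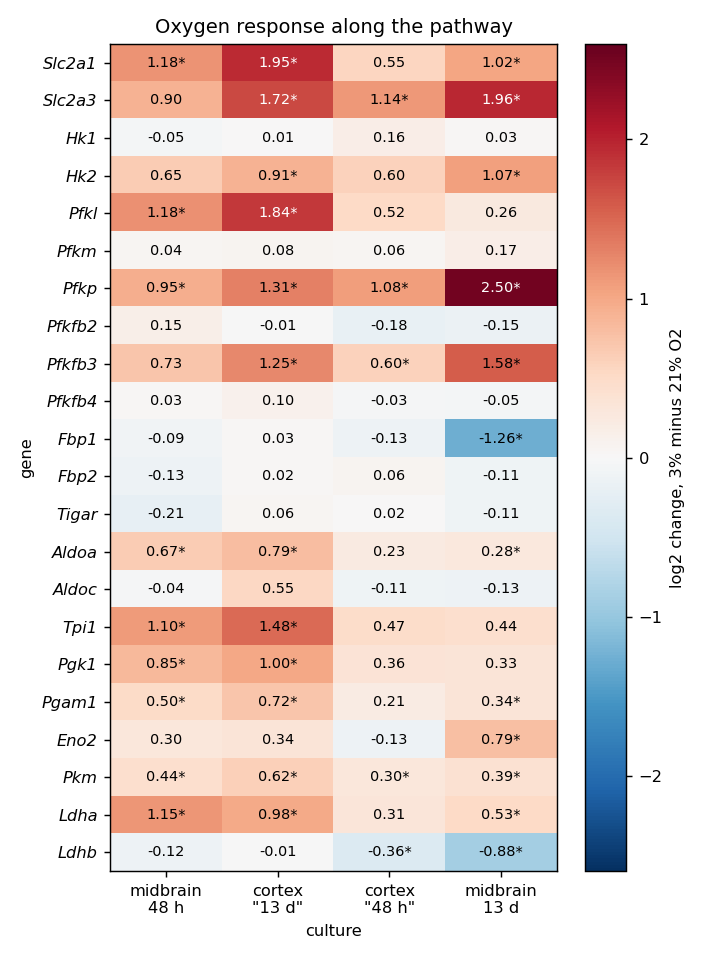
Log2 change at 3% against 21% O2 (colour and printed value) of the pathway genes with a probe set of their own, ordered from glucose entry to lactate (y axis), in the 4 cultures (x axis). An asterisk marks an adjusted p under 0.05 in limma, n = 3 arrays per group. Pfkp carries the largest value of the 6 members, 2.50 in midbrain 13 d.

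In 3 of the 4 comparisons between cultures most of the 11 genes were lower on the neuron-rich side, the exception being cortex at 3% O2, while Pfkp was higher there or did not pass. In midbrain 48 h against cortex labelled 48 h, 10 of the 11 genes were lower and 1 higher at each oxygen level, where 30.5% of all tested probe sets were lower at 21% O2 and 36.9% at 3% O2. The 1 higher gene was Eno2, the neuronal enolase (1.78 ± 0.14 at 21% O2 and 2.21 ± 0.14 at 3% O2). The falls ran from Hk1 (-0.36 ± 0.083) to Aldoc (-3.06 ± 0.19) at 21% O2. In cortex labelled 13 d against labelled 48 h, 9 were lower and Eno2 was higher (1.05 ± 0.14) at 21% O2, against 20.4% of all probe sets lower. At 3% O2, 2 were lower, Aldoc (-0.53 ± 0.19) and Tpi1 (-0.45 ± 0.17), and Eno2 was higher (1.51 ± 0.14), against 24.7% of all lower. The list median moved from -0.56 at 21% O2 to -0.14 at 3% O2.

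Among the listed regulators 1 passed in all 4 cultures. In the oxygen-sensing list, Egln3, a HIF prolyl hydroxylase that HIF itself induces, rose in all 4 cultures, by 1.12 in midbrain 48 h, 2.44 in cortex labelled 13 d, 1.22 in midbrain 13 d and 1.09 for cortex labelled 48 h (each ± 0.21). None of the other 5 passed outside midbrain 13 d, where Egln1 (0.80 ± 0.13), Epas1 (0.71 ± 0.24) and Arnt (0.27 ± 0.084) rose and Hif1a fell by 0.39. Of the 6 subunit genes of AMPK, the energy-sensing kinase that phosphorylates PFKFB enzymes, 0 passed in the neuron-rich cultures by limma's adjusted p. In midbrain 13 d, where 5584 probe sets were called, 2 of the AMPK genes rose and 2 fell, Prkaa2 the most (0.91 ± 0.12). Prkaa2 also rose in cortex labelled 48 h (0.49 ± 0.12), where 2886 were called. Fzr1, the activator of the anaphase-promoting complex that marks the Pfkfb3 protein for breakdown, rose by 0.24 in midbrain 13 d and fell by 0.21 in cortex labelled 48 h (each ± 0.068). Its level did not differ past the threshold between neuron-rich and neuron-poor cultures (-0.16 and 0.067 in cortex labelled 13 d and -0.15 and 0.060 in midbrain 48 h, at 21% and 3% O2, against cortex labelled 48 h). Of the other two listed genes of the complex, Cdc20, its activator in dividing cells, was lower in all 4 comparisons (-0.44 and -0.48 in cortex labelled 13 d, -1.89 and -1.67 in midbrain 48 h). Cdc27, a core subunit, was lower in midbrain 48 h only (-0.24 and -0.28). Myc fell by 0.40 in midbrain 13 d, and Akt1 did not pass in any culture.

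For each of the 6 genes, the 3 most similar genes among 18588 were taken by Pearson correlation over the 24 arrays, as a description. The arrays share groups, runs and the large culture differences, which raise all such values. Pfkl was closest to Pdk1 (0.991), Tpi1 (0.990) and Bnip3 (0.983), which are textbook HIF targets or glycolysis genes. Pfkfb3 was closest to Stc2 (0.953), Abcc1 (0.883) and Nampt (0.872), and Pfkp to Sun1 (0.926), Trpc1 (0.922) and Ache (0.897). Pfkm was closest to Slc35a2 (0.983), Efhd1 (0.982) and Cav2 (0.981). Pfkfb2 was closest to Epc1 (0.973), Tcaf1 (0.967) and Gpr137c (0.961), and Pfkfb4 to Plppr2 (0.961), Spns2 (0.958) and Map1lc3a (0.957).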

How the data were processed

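Biotin-labelled cDNA from total RNA was hybridised to 24 MoGene-1_0-st-v1 arrays. The authors deposited log2 values, described as normalized per the labels. How background was corrected and values normalized: not given in the sources used here. Such values alone do not show whether a probe set lies above background. Of 28856 probe sets, 23410 had a symbol in the platform annotation and were tested, 21789 with 1 symbol and 1621 with several; 5446 are unnamed here. Limma 3.58.1 in R 4.3.3 fitted 8 group means to 24 arrays (16 residual degrees of freedom), with default eBayes, two-sided tests, Benjamini-Hochberg adjustment and a threshold of 0.05. Members were named in full, pathway and regulator genes by fixed lists (counts, plus the genes next to the reaction or called most often), and similar genes as the 3 highest correlations. Members and lists were chosen with earlier results of these data known. Same-numbered arrays deviated together in midbrain (correlations 0.12 to 0.42, all above 0.1), though unlike-numbered arrays of midbrain 13 d reached 0.17. Those of midbrain 48 h lay between -0.18 and -0.029, all below its same-numbered ones. In cortex some same-numbered pairs did (up to 0.42) and others did not (down to -0.37). The main fit took the numbers as pairs in no culture, midbrain included, and the replicate block was run as an alternative. The correlations come from the data, as no label ties a number to a litter or batch. No replicate pair was a duplicate (smallest SD of a difference 0.0904). The model was tested on simulated data. Alternatives were other probe set filters, normalizations, variance models and sample sets, the replicate block and leaving out arrays.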

Additional observations from a re-analysis of the deposited data

Results flagged for a closer look

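Oxygen responses (3% minus 21% O2, log2) differed between cultures in 6 tests of the difference itself. Of all tested probe sets, 15.1% were called in the midbrain time difference and 4.13% in the cortex time difference. In the region differences 13.5% were called at labelled 13 d and 5.88% at labelled 48 h, where 0 members were. All but the cortex time difference below use the same midbrain 13 d arrays. Pfkl differed by -0.92 between midbrain 13 d and 48 h, by 1.33 between cortex labelled 13 d and 48 h, and by -1.58 between midbrain and cortex at labelled 13 d. Pfkp differed by 1.55 between midbrain 13 d and 48 h, and by 1.19 between midbrain and cortex at labelled 13 d. Pfkfb3 differed by 0.85 between midbrain 13 d and 48 h, a call that 9 of the 12 fits leaving out 1 array did not keep.

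The Pfkp over Pfkl ratio moved in opposite directions with oxygen in cortex labelled 13 d and the neuron-poor cultures, without overlap of arrays in these 3. In midbrain 48 h the oxygen groups overlapped. The ratio was lower at 3% O2 in cortex labelled 13 d and higher in cortex labelled 48 h, shifts that differ by -1.10, and higher in midbrain 13 d, which differs from cortex labelled 13 d by 2.77. These 2 differences were not tested.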

How the results depend on the processing

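The 31 called member values had 455 values under alternatives: 425 kept direction and call, 30 kept direction without the call, 0 reversed, and 24 of the 31 kept the call in every alternative run. The replicate block changed 2 member calls, Pfkp (adjusted p = 0.0786) and Pfkfb3 (adjusted p = 0.0495) in midbrain 48 h, and moved the number of called probe sets by over 1.5 times in the differences of responses between cortex times (967 to 1596) and between regions at 48 h (1377 to 2116). Quantile normalization raised the called probe sets in midbrain 48 h from 279 to 428, and brighter probe sets alone lowered them to 156 and those of the midbrain 48 h minus cortex level at 3% O2 from 14332 to 9524, with fewer tested. Fitting only the arrays compared gave 4 probe sets and 0 members in midbrain 48 h, 311 (main 2886) and 0 members in cortex labelled 48 h, 348 (main 142) in cortex labelled 13 d, 377 and 331 for the cortex time and 48 h region differences, 4873 (main 3162) for the region difference at 13 d, and 6 members (main 3) for the cortex level difference at 3% O2. With all probe sets, 1 member (main 2) was called in cortex labelled 48 h. Both number 1 arrays of cortex labelled 48 h were left out together as an alternative chosen after seeing the data: probe sets called were 2496 (members 3, main 1) for the cortex time difference and 2755 (members 1, main 0) for the 48 h region difference. Then Pfkm in cortex labelled 48 h turned to -0.22 (adjusted p = 0.0451), the 48 h region differences of Pfkm and Pfkp to 0.27 and 0.21, and the cortex level difference of Pfkp at 21% O2 to -0.15; the cause was not tested.

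Leaving out 1 array gave 141 to 302 probe sets and 1 to 2 members in midbrain 48 h, 1725 to 4210 and 1 to 3 in cortex labelled 48 h, 68 to 110 in cortex labelled 13 d, 1 to 3 members for the midbrain time difference, 429 to 2970 and 1 to 2 for the cortex time difference, and 752 to 3084 and 0 to 2 for the 48 h region difference. Among values that were not called, signs turned for Pfkfb4 in midbrain 48 h (-0.016 to 0.074) and cortex labelled 48 h (-0.13 to 0.020), Pfkm in cortex labelled 48 h (-0.17 to 0.21), Pfkfb2 in cortex labelled 13 d (-0.093 to 0.11), Pfkm for the cortex time difference (-0.13 to 0.25), Pfkfb3 (-0.14 to 0.39), Pfkm (-0.17 to 0.22) and Pfkp (-0.34 to 0.16) for the 48 h region difference, and Pfkp for the cortex level difference at 21% O2 (-0.15 to 0.35). The 9 isoform balance results kept direction and side of the threshold under each alternative run, the replicate block among them; a mean over several probe sets was not run, since each isoform has 1. Each group has 3 arrays, and no depth exists for arrays.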

Other observations

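Levels of midbrain 13 d against midbrain 48 h cross the array runs and were compared with no test, since run and culture time cannot be told apart. At 21% O2, Pfkl was 2.81 higher at 13 d on the log2 scale (11.43 against 8.62), and Pfkp was at 7.08 against 9.81, a difference of -2.74. At 3% O2 these differences were 1.89 and -1.19. Pfkm was higher at 13 d by 0.89 at 21% O2 and 1.02 at 3% O2. Pfkfb2 differed by -0.47 and -0.76, and Pfkfb4 by -0.39 and -0.46, while Pfkfb3 differed by -0.085 at 21% O2 and 0.76 at 3% O2. The Pfkp over Pfkl ratio was higher at 48 h by 5.54 at 21% O2 and by 3.07 at 3% O2.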
